A study of Mus musculus with 19 samples.

Results

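The genes described here are 10 markers of adult neurogenesis in the dentate subgranular zone, chosen by symbol and matched to the Ensembl identifiers of a count table of 51789 genes. They mark progenitors, dividing cells and neuroblasts, and all 10 were found and tested in every comparison. RNA was sequenced from the dorsal hippocampus of C57BL/6J male mice aged 2 to 4 months, in 19 libraries of total RNA depleted of ribosomal RNA. In experiment 1 every mouse carried the tetracycline transactivator (tTA+) and had been exposed to a condition the labels call SOR. Of these libraries, 5 came from mice that also carried DN (tTA+/DN+), a dominant-negative Nr4A transgene, and 6 from controls without it (tTA+/DN-). In experiment 2 no mouse carried DN, with 4 libraries after SOR and 4 from the homecage. SOR replicate 1 and homecage replicates 1 and 2 were tTA- (tTA-/DN-), and the other 5 were tTA+ (tTA+/DN-). The labels give neither the promoter that drives tTA nor whether a library is 1 mouse, so p-values measure the spread between libraries.

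New granule neurons are made throughout life in the subgranular zone, a thin layer between the granule cells and the hilus. Radial-glia-like stem cells give rise to dividing intermediate progenitors, these to neuroblasts, and the neuroblasts pass through an immature stage before they become mature granule cells. These cells are few, so most RNA of a hippocampal dissection comes from other cells, and several markers are made elsewhere too: Nes in vessels, Calb2 in mossy cells and some interneurons, Neurod1 in mature granule cells. In bulk tissue, fewer cells of a type and less RNA per cell cannot be told apart.

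Each marker was counted in all 19 libraries. Levels are CPM, counts divided by the TMM-scaled library size within an experiment, and levels of different genes are compared per kilobase of annotated exon (RPKM). By the median RPKM over the 19 libraries, the order was Calb2 (9.45), Neurod1 (6.14), Sox11 (3.44), Nes (2.93), Sox4 (1.95), Igfbpl1 (1.66), Dcx (1.57), Mki67 (1.01), Top2a (0.607) and Eomes (0.308). The order of some neighbours depended on the experiment. Igfbpl1 was above Dcx in 3 of 11 libraries of experiment 1 and in 6 of 8 of experiment 2. Nes was above Sox4 in all 11 libraries of experiment 1 but in 3 of 8 of experiment 2, and Sox4 was above Igfbpl1 in 7 of 11 and in all 8. Dcx was above Mki67 and Top2a above Eomes in all 19. Eomes, the T-box factor of intermediate progenitors, had 20 to 163 counts per library, so its values are the least precise of the 10. All 10 are protein-coding genes. In GRCm38, the same assembly as mm10, Igfbpl1 (ENSMUSG00000035551.6) lies at chr4:45809468-45826923 on the minus strand with 7 annotated exons. Eomes (ENSMUSG00000032446.14) lies at chr9:118478212-118486132 on the plus strand with 10, and Calb2 (ENSMUSG00000003657.9) at chr8:110137502-110168210 on the minus strand with 13. Mki67 (ENSMUSG00000031004.8) lies at chr7:135689784-135716361 and Dcx (ENSMUSG00000031285.14) at chrX:143855842-143933311, both on the minus strand. Sox4 (ENSMUSG00000076431.4) is a gene of 1 exon at chr13:28948919-28953713, and so is Sox11 (ENSMUSG00000063632.6) at chr12:27334264-27342574. Neurod1 shares 201 exonic bases with Cerkl on the same strand. Sox4 shares 2616 of its 4795 exonic bases with the lincRNA Gm26735 on the opposite strand, which had 0 to 2 counts.

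The proliferation genes and Eomes are shown with the 250 bases of GRCm38.p6 before their RefSeq start, because Mki67 and Eomes were the markers other than Igfbpl1 that passed the test in homecage mice alone, and Top2a is the second gene of dividing cells. RefSeq entries were matched for 8 of the 10 markers, and Igfbpl1 and Calb2 were not among them. Motifs were searched on both strands, and capitals mark CCAAT (the box bound by NF-Y) and TTTGAA (the core of the cell cycle homology region). The Mki67 window is chr7:135716380-135716629 on the minus strand and held 3 CCAAT and 2 TTTGAA. The Top2a window is chr11:99024190-99024439 on the minus strand and held 6 CCAAT and 2 TTTGAA. The Eomes window is chr9:118477939-118478188 on the plus strand and held 2 CCAAT and 0 TTTGAA.
Mki67: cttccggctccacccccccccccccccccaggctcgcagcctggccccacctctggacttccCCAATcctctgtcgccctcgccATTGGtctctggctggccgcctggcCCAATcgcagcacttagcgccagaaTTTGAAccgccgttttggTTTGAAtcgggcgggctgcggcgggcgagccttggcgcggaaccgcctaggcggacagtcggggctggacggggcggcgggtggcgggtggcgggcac
Top2a: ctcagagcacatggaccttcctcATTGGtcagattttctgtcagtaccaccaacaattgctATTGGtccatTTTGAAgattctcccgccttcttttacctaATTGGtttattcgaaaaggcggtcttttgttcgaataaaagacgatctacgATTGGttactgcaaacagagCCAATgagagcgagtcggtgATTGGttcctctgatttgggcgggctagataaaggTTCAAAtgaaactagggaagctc
Eomes: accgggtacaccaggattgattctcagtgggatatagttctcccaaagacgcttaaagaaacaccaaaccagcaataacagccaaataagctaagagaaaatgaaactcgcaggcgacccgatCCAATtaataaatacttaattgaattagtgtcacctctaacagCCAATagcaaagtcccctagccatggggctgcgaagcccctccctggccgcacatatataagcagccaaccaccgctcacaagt
Among 32851 windows of this length, 33.8% held CCAAT and 16% held TTTGAA. The E-box CAGATG, a sequence that NeuroD-type factors bind, and the Sox-type sequence ACAATG were in 0 of the windows of these 8 markers, against 14.4% and 10.7% of all windows. In the 3 printed sequences no CCAAT match overlapped a TTTGAA match.

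**Figure D1:**
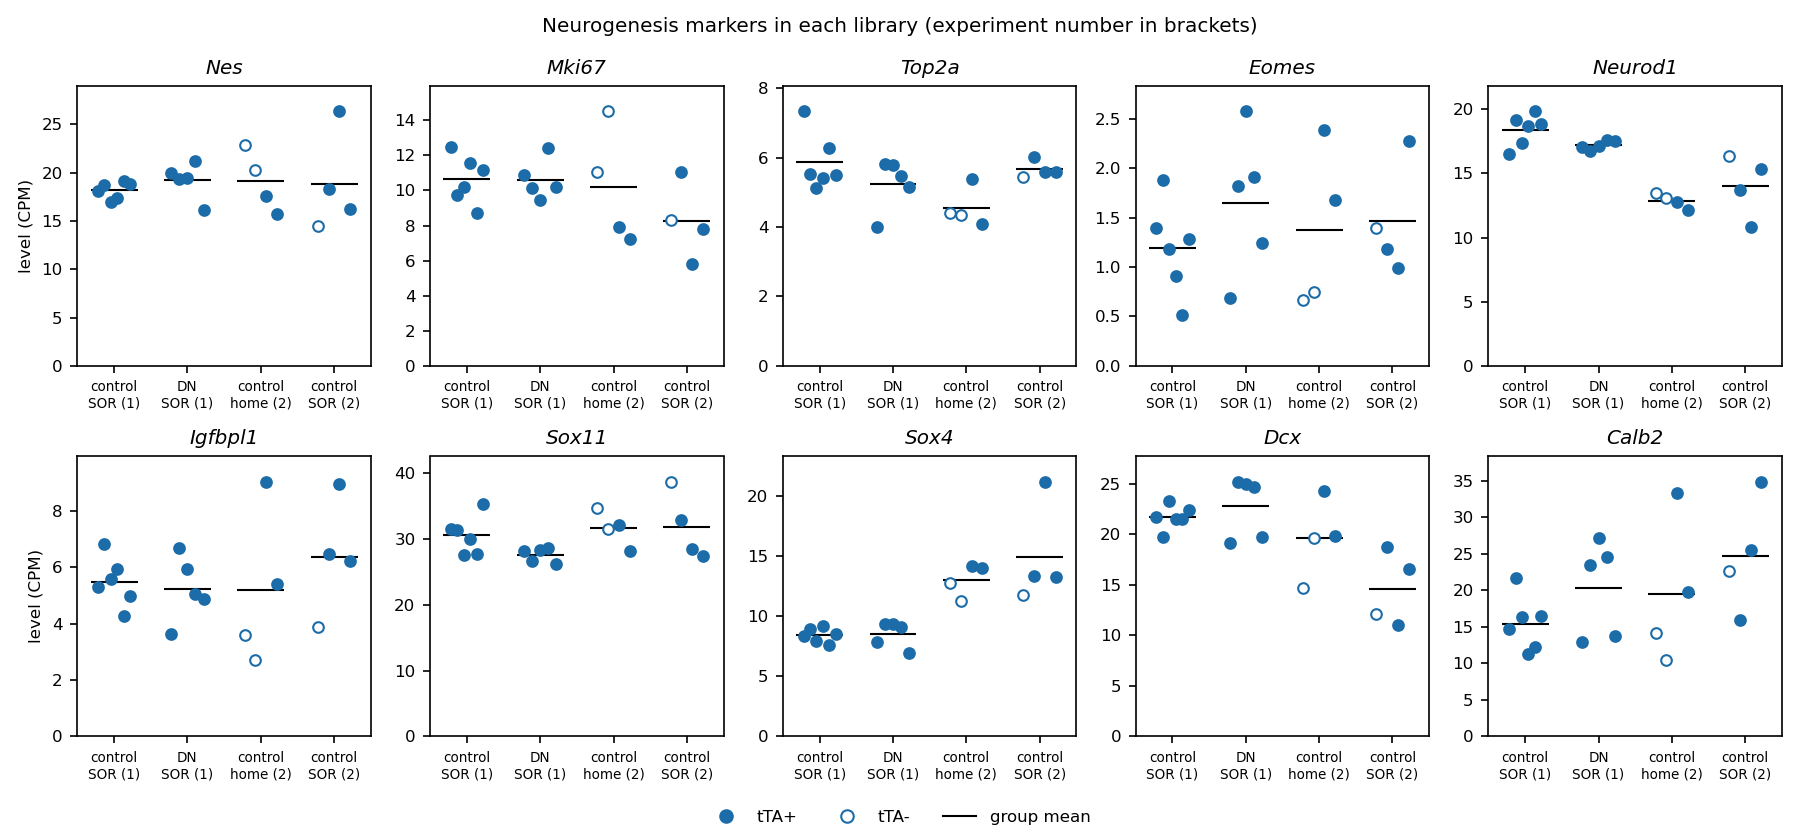
Level of each marker in every library (CPM, linear axis from 0), by group, with the experiment number in brackets. Filled points are tTA+ libraries, open points tTA- libraries, and lines are group means; in Igfbpl1 the 3 open points (2.70 to 3.89) lie below the 5 filled points of experiment 2 (5.40 to 9.02).

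The comparison of tTA+ with tTA- control mice, with exposure in the model, held the largest fold change of a marker among the 3 comparisons. Igfbpl1, an insulin-like growth factor binding protein relative made by neuroblasts, was at 3.59 and 2.70 CPM in the tTA- homecage libraries and at 3.89 CPM in the tTA- SOR library. In tTA+ mice it was at 9.02 and 5.40 CPM in the homecage and at 6.45, 8.94 and 6.21 CPM after SOR. Every tTA+ library was thus above every tTA- library, with means of 7.20 ± 1.67 CPM (SD, n = 5) and 3.39 ± 0.615 CPM (SD, n = 3). This is a log2 fold change of 1.07 (SE 0.224). Its p was 7.12e-04 before and 0.111 after Benjamini-Hochberg adjustment over 22904 genes in edgeR's quasi-likelihood test. It missed the threshold of 0.05. DESeq2 called it, at an adjusted p of 9.09e-04. So did edgeR with no filter on low counts (3.92e-05), with all 19 samples in 1 fit (0.00508), in homecage mice alone (0.0216) and without SOR replicate 3 (0.0348). It was not called with DESeq2's size factors in edgeR (0.114), without the exposure term (0.0577) or with the replicate block. With that block the tTA difference rests on replicate 2 alone, tTA- in the homecage and tTA+ after SOR, so that fit cannot decide it. Without any other single library the edgeR adjusted p ran from 0.0974 to 0.635.

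The other neuroblast markers differed less. Sox4, a SoxC transcription factor that drives the neuronal program of neuroblasts, was at 12.7, 11.3 and 11.8 CPM in tTA- homecage replicates 1 and 2 and SOR replicate 1. It was at 14.2 and 14.03 CPM in tTA+ homecage mice and at 13.4, 21.2 and 13.3 CPM in tTA+ SOR mice. The tTA groups did not overlap, but the log2 fold change was 0.32 (SE 0.171, edgeR adjusted p 0.9999), and 0.21 without SOR replicate 3, which held the value of 21.2. Its relative Sox11 had the opposite sign, at -0.24 (SE 0.108, edgeR adjusted p 0.875), with 34.7, 31.5 and 38.7 CPM in tTA- libraries. In tTA+ libraries Sox11 was at 32.2, 28.2, 32.99, 28.4 and 27.4 CPM, which overlapped the tTA- range. Dcx, the microtubule-binding protein doublecortin of migrating neuroblasts, had 14.6, 19.6 and 12.1 CPM in tTA- libraries. In tTA+ libraries it had 24.2, 19.9, 18.8, 10.98 and 16.6 CPM. Its log2 fold change was 0.36 (SE 0.179, edgeR adjusted p 0.956), and the lowest tTA+ value was again SOR replicate 3.

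Eomes was at 0.670 and 0.746 CPM in the tTA- homecage libraries and at 1.39 CPM in the tTA- SOR library. The tTA+ libraries were at 2.39 and 1.67 CPM in the homecage and at 1.18, 0.993 and 2.28 CPM after SOR. Its log2 fold change was 0.87 (SE 0.363, edgeR adjusted p 0.813). Calb2 makes calretinin, a calcium-binding protein that new granule neurons make for a short time. It was at 14.2, 10.4 and 22.7 CPM in tTA- libraries and at 33.3, 19.8, 15.98, 25.5 and 34.8 CPM in tTA+ libraries. Its log2 fold change was 0.69 (SE 0.288, edgeR adjusted p 0.809). For both genes the groups overlapped through the tTA- SOR library, which lay above 2 of the 5 tTA+ libraries. Neurod1, a basic helix-loop-helix factor required for granule cell formation, was at -0.18 (SE 0.127, edgeR adjusted p 0.9999).

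Markers of dividing cells did not share a direction. Mki67, the Ki-67 protein that coats mitotic chromosomes, was at 11.03, 14.5 and 8.32 CPM in tTA- libraries and at 7.91, 7.23, 11.1, 5.82 and 7.77 CPM in tTA+ libraries. Its log2 fold change was -0.45 (SE 0.234, edgeR adjusted p 0.9999), and 4 of the 5 tTA+ libraries lay below the tTA- range. Top2a, the topoisomerase that untangles DNA in dividing cells, was at 0.10 (SE 0.147, edgeR adjusted p 0.9999). Nes, the nestin filament of stem cells, was at -0.02 (SE 0.214, edgeR adjusted p 0.9999).

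Of the 10 markers, edgeR called 0 between the tTA genotypes, against 0.358% of the genes tested, and DESeq2 called 1, Igfbpl1, against 1% of its genes. At an unadjusted p under 0.05 there were 3 higher (Igfbpl1, Eomes and Calb2) against 2.27% of all genes, and 1 lower (Sox11) against 3.44%. The tTA+ libraries lay wholly above the tTA- libraries for 2 markers, Igfbpl1 and Sox4, against 2.4% of genes. The median log2 fold change of the 10 was 0.21, against 0.01 over all genes tested.

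Among homecage mice alone, 2 tTA+ against 2 tTA-, edgeR called 3 of the 10 markers, against 4.17% of 22617 genes (1.91% higher and 2.26% lower). Eomes was higher at 1.52 (adjusted p 0.0155), Igfbpl1 was higher at 1.23 (0.0216) and Mki67 was lower at -0.76 (0.0160) on the log2 scale. Calb2 was at 1.13 with an adjusted p of 0.125. Whether the tTA difference depended on exposure was tested as an interaction, which rests on 1 tTA- library after SOR. edgeR called 0 of 22305 genes and 0 of the 10 markers, and 464 genes (2.08%) had an unadjusted p under 0.05. Among the markers that was Nes alone, at 0.86 (SE 0.343, p 0.0355, edgeR adjusted p 0.9998), and Eomes was at -1.40 (SE 0.636, p 0.0571). With 1 library in that arm, the result says nothing on whether the tTA difference depends on exposure.

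**Figure D2:**
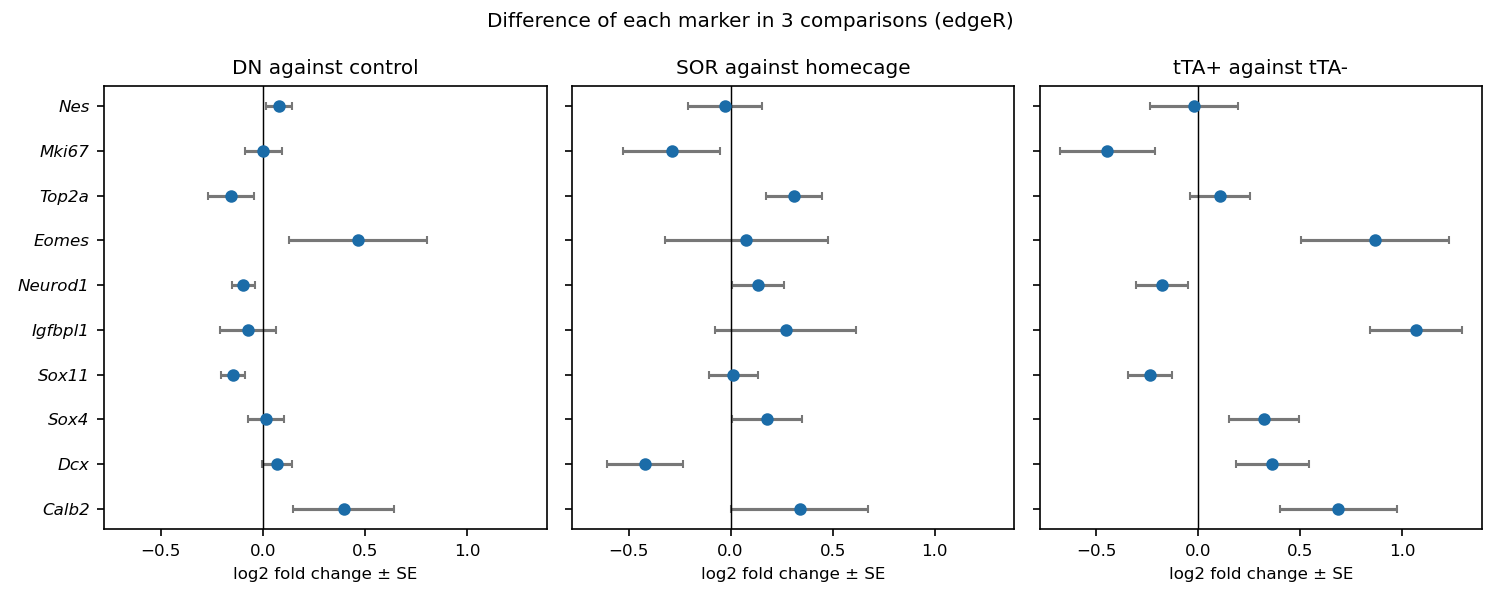
Log2 fold change of each marker with its standard error (edgeR) in the 3 comparisons, on a shared axis. Igfbpl1, Eomes and Calb2 lie farthest above 0 in the tTA comparison (1.07, 0.87 and 0.69), and the standard error of each marker is smallest in the DN comparison.

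Other genes of the same stages were taken from written lists. Beside the members, 19 genes of neuroblasts and immature neurons were tested by tTA genotype. Of these 0 were called, 16 were above 0 against 53.2% of all genes, and 5 were higher at an unadjusted p under 0.05 against 2.27%. Their median log2 fold change was 0.17. Examples are Sema3c, a guidance signal, at 0.33 (SE 0.0978), Dpysl5, a cytoskeletal regulator of growing neurites, at 0.34 (SE 0.101), and St8sia2, which adds polysialic acid to NCAM, at 0.67 (SE 0.218). Their edgeR adjusted p values were 0.428, 0.430 and 0.528. Among 13 further stem and progenitor genes tested, 0 were called and the median was 0.10. Fabp7, a fatty acid binding protein of radial glia, was at 0.52 (unadjusted p 0.0434, edgeR adjusted p 0.842).

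Among 26 further proliferation genes, 0 rose and 1 fell, with a median of 0.08, where 0.109% of all genes rose and 0.249% fell. The gene that fell was Mcm6, a subunit of the helicase that opens replication origins, at 17.6 ± 2.24 CPM in tTA+ libraries (SD, n = 5) and 33.02 ± 1.74 CPM in tTA- libraries (SD, n = 3). On the log2 scale Mcm6 fell by 0.92 (SE 0.119, edgeR adjusted p 0.00981). Of 25 signals and receptors that act on neurogenesis, 0 rose and 1 fell. That was Jag1, a Notch ligand, at -0.68 (SE 0.105, edgeR adjusted p 0.0247), with 7.53 ± 0.816 CPM against 12.7 ± 1.49 CPM. Next by p was Cxcl12, a chemokine, at -0.60 (SE 0.116, edgeR adjusted p 0.0832), which was not called. Smo, the transducer of hedgehog signals, was at -0.44 and Bdnf, a neurotrophin, at -0.38, with edgeR adjusted p of 0.194 and 0.323.

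Markers of mature granule cells, the product of this lineage, fell with tTA in 5 of 10 genes, and 1 rose. Those that fell were C1ql2, Trpc6, C1ql3, Stxbp6 and Dsp, at -2.19, -1.21, -1.16, -1.13 and -1.06 on the log2 scale, and the one that rose was Tdo2, at 0.88 (edgeR adjusted p from 3.16e-04 to 0.0191). Prox1, the transcription factor that fixes granule cell identity, was at -0.67 (edgeR adjusted p 0.350). The median over the 10 genes was -0.86, where the 10 neurogenesis markers had 0.21. C1ql2 was at 19.1 ± 4.19 CPM in tTA+ libraries and at 86.02 ± 6.54 CPM in tTA- libraries of experiment 2. Several of these granule genes were known from earlier results of these data to differ by tTA, so the list is no independent evidence. Stxbp6, Dsp and Prox1 fall outside the rule for named genes in this comparison and were chosen after their values were seen.

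**Figure D3:**
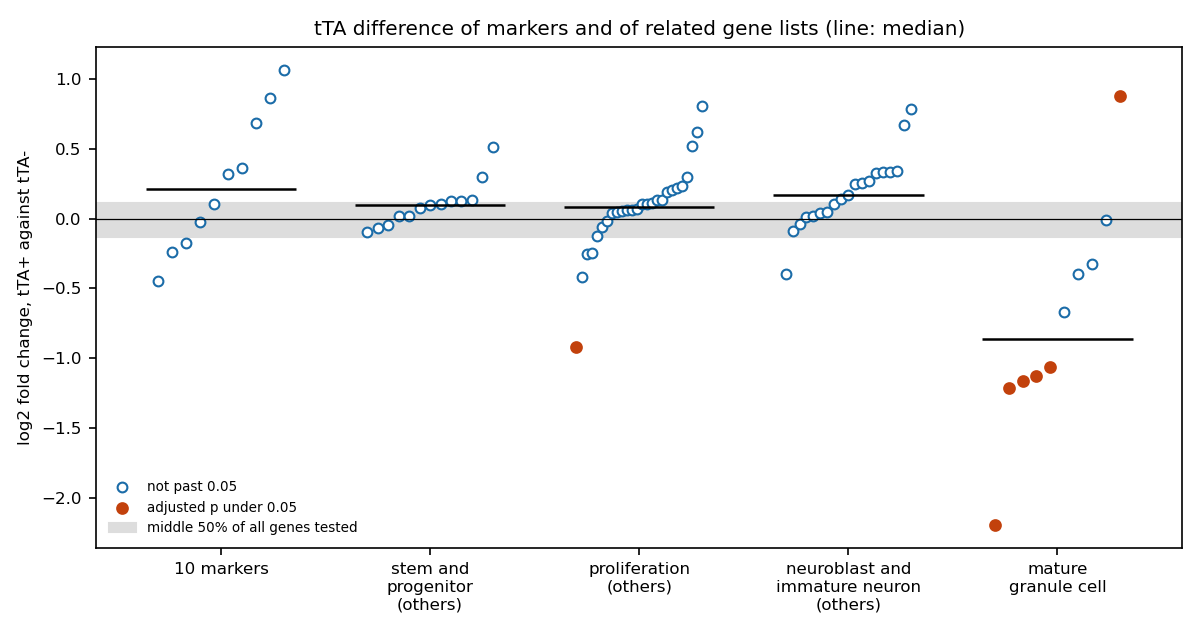
Log2 fold change between tTA+ and tTA- libraries for the 10 markers, for the other genes of 3 lists of neurogenic stages, and for mature granule cell genes; each point is a gene, lines are list medians, filled points passed an adjusted p of 0.05 and the grey band holds the middle of all genes tested. The granule cell genes have a median of -0.86 and the markers 0.21.

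Among markers of other cell types, granule cell genes and Tbr1 passed the test by tTA genotype, and their part in the differences of Igfbpl1, Eomes and Calb2 was not tested. The summed level of the 10 granule cell genes was 674 to 850 CPM in tTA+ libraries and 1113 to 1201 CPM in tTA- libraries. The 6 neocortex markers summed to 110 to 125 CPM against 87.4 to 93.7 CPM, with 1 of 6 called, Tbr1, at 1.63. The 8 markers of oligodendrocyte precursors, which also divide, summed to 326 to 375 CPM against 295 to 317 CPM, with 0 of 8 called. Those of mossy cells (110 to 137 against 105 to 127 CPM, 0 of 4 called) and interneurons (912 to 1308 against 845 to 942 CPM, 0 of 8 called) overlapped. The 6 endothelium markers had 0 called. None of these markers was at 0 in any library.

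The exposure comparison set SOR against homecage libraries of experiment 2. The SOR libraries had 12.1, 18.8, 10.98 and 16.6 CPM of Dcx, and the homecage libraries had 14.6, 19.6, 24.2 and 19.9 CPM. The group means were 14.6 ± 3.67 and 19.6 ± 3.92 CPM (SD, n = 4 each), and 2 of the 4 SOR libraries lay below every homecage library. The log2 fold change was -0.42 (SE 0.187, p 0.0452, edgeR adjusted p 0.650), and -0.50 (SE 0.173, edgeR adjusted p 0.807) with tTA as a covariate. For Top2a the SOR libraries had 5.45, 6.02, 5.58 and 5.58 CPM, and those of the homecage 4.39, 4.34, 5.39 and 4.08 CPM. Every SOR library was above every homecage library, by a margin that is small beside the homecage spread, at a log2 fold change of 0.31 (SE 0.137, p 0.0429, edgeR adjusted p 0.650).

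Mki67 was at -0.29 (SE 0.237, edgeR adjusted p 0.714), but at 0.13 in tTA+ mice alone. The remaining markers ran from -0.03 (Nes) to 0.34 (Calb2), with edgeR adjusted p of 0.749 or higher. edgeR called 0 of the 10 markers after SOR, against 0.0897% of all genes, and DESeq2 called 0. At an unadjusted p under 0.05 there were 2, Top2a higher (against 3.67% of genes) and Dcx lower (3.93%). Top2a was the 1 marker whose SOR libraries lay wholly above the homecage, against 3.06% of genes. The median of the 10 was 0.10, against 0.01 over all genes. In tTA+ mice alone (3 against 2), the values were -0.51 for Dcx and 0.27 for Top2a (edgeR adjusted p 0.998 for each). In that fit 6 of the 10 markers turned sign: Mki67 (0.13), Nes (0.28), Calb2 (-0.069), Eomes (-0.44), Igfbpl1 (-0.016) and Sox11 (-0.030).

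Of the 26 proliferation genes that are not members, 0 were called after SOR, 19 were above 0 against 51.5% of all genes, and the median was 0.15. Pcna, the DNA polymerase clamp, was at 0.21 and Ccna2, cyclin A2, at 0.31, with edgeR adjusted p of 0.670 and 0.691. Of 13 further stem and progenitor genes 0 were called, with 6 above and 7 below 0 and a median of -0.0013. Thrsp, a lipid synthesis protein of quiescent stem cells, was at 0.65 (SE 0.133, edgeR adjusted p 0.185). Sox2, a transcription factor of neural stem cells, was at -0.29 (unadjusted p 0.0225, edgeR adjusted p 0.621). Of the 19 further genes of neuroblasts and immature neurons 0 were called, with 8 above 0 and a median of -0.03. Of the 25 signals and receptors 0 were called as well, and Kdr, a receptor of VEGF, was at -0.55 (edgeR adjusted p 0.157). Choroid plexus markers, a sign of tissue attached to the dissection, summed to 25.4 to 2177 CPM after SOR and 46.9 to 174 CPM in the homecage, with 0 of 8 called. Their part in the Top2a difference was not tested; the highest sums were in SOR replicates 1 and 2, which had 5.45 and 6.02 CPM of Top2a.

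SOR replicate 3 stood apart among the 8 libraries of experiment 2, with 22258159 counts and 27815 genes detected. It had the highest Nes (26.4 CPM) and Sox4 (21.2 CPM) and the lowest Dcx, Mki67 and Neurod1. Without it the SOR difference of Nes was -0.23 instead of -0.03, that of Sox4 was -0.03 instead of 0.18, and that of Dcx was -0.31. Homecage replicate 3, the largest library with 66991576 counts, had the highest Eomes, Igfbpl1 and Dcx. Without it the SOR difference of Calb2 was 0.74 instead of 0.34, with an edgeR adjusted p of 0.739. Igfbpl1 was at 8.94 CPM in SOR replicate 3 and 9.02 CPM in homecage replicate 3, the libraries of lowest and highest depth, both tTA+. Its relation to depth was not tested.

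The DN comparison set 5 DN libraries against 6 controls of experiment 1, all tTA+ and all after SOR. Of the 3 Nr4a genes 0 were called: log2 fold changes were -0.11 for Nr4a1, -0.26 for Nr4a2 and -0.20 for Nr4a3, with an edgeR adjusted p of 0.999 each. Nr4a1 was at 28.4 to 39.2 CPM with DN and at 20.2 to 52.5 CPM in the controls, so these counts do not check the DN label. Sox11 was at 28.2, 26.6, 28.4, 28.6 and 26.2 CPM with DN. In the controls its lowest value was 27.5, its median 30.7 and its highest 35.3 CPM. All 5 DN libraries were below 4 of the 6 controls, at a log2 fold change of -0.15 (SE 0.0580, p 0.0199, edgeR adjusted p 0.999). Calb2 was at 12.9, 23.4, 27.1, 24.5 and 13.8 CPM with DN and from 11.2 to 21.7 CPM in the controls (median 15.5). Its log2 fold change of 0.40 had an SE of 0.247, and 3 DN libraries lay above every control while 2 lay within their range.

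Eomes followed Calb2, at 0.689, 1.82, 2.57, 1.91 and 1.24 CPM with DN and 0.513 to 1.88 CPM in the controls (median 1.23), a log2 fold change of 0.46 (SE 0.338). Dcx averaged 22.8 ± 3.04 CPM over the DN libraries (SD, n = 5) and 21.7 ± 1.18 CPM over the controls (SD, n = 6), and Mki67 was at 10.6 ± 1.13 and 10.6 ± 1.35 CPM. The other markers lay between -0.16 (Top2a) and 0.08 (Nes). edgeR called 0 of the 10, against 0.00893% of 22391 genes, and DESeq2 called 0. At an unadjusted p under 0.05 there was 1, Sox11, against 1.81% of genes that were lower. The groups overlapped for all 10, where 0.299% of genes did not overlap. Standard errors ran from 0.0559 (Neurod1) to 0.338 (Eomes), so a change of Neurod1, Sox11, Nes or Dcx would show at a smaller size than one of Eomes or Calb2. Of the 19 further genes of neuroblasts and immature neurons, 0 were called with DN, 15 were below 0 against 50% of all genes, and the median was -0.04. Of the 26 further proliferation genes, the 13 further stem and progenitor genes and the 10 granule cell genes, 0 were called, with medians of 0.02, -0.01 and -0.06.

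Both experiments hold tTA+/DN- libraries after SOR, 6 in experiment 1 and 3 in experiment 2. The experiments were scaled separately, so levels are set side by side without a test. Sox4 was at 6.94 to 9.38 CPM in the 11 libraries of experiment 1 and at 11.3 to 21.2 CPM in experiment 2, and Neurod1 was at 16.5 to 19.8 and 10.8 to 16.4 CPM. All mice of experiment 1 were tTA+. Igfbpl1 lay there at 3.64 to 6.84 CPM, above the highest tTA- value of experiment 2 (3.89 CPM) in 10 of 11 libraries, and Dcx lay above its highest tTA- value (19.6 CPM) in 10 of 11 as well. For Sox4, whose tTA+ libraries lay above the tTA- libraries within experiment 2, all 11 libraries of experiment 1 lay below the lowest tTA- value. With genotype and exposure held equal, the 6 controls of experiment 1 had 7.62 to 9.23 CPM of Sox4 and the 3 tTA+ SOR libraries of experiment 2 had 13.3 to 21.2 CPM. For Neurod1 these ranges were 16.5 to 19.8 and 10.8 to 15.3 CPM, and for Igfbpl1 they were 4.28 to 6.84 and 6.21 to 8.94 CPM. For Dcx they were 19.7 to 23.3 and 10.98 to 18.8 CPM. The experiments thus did not overlap at equal genotype for Sox4, Neurod1 and Dcx, while the ranges of the other 7 markers overlapped. The share of all genes without overlap between the experiments was not computed, so these markers cannot be set apart from other genes.

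Among themselves, Eomes and Calb2 varied together. Over the 11 libraries of experiment 1, the Pearson r of their log2 CPM was 0.887 (permutation p 2e-04, 0.009 adjusted over 45 pairs of markers) and Spearman's rho was 0.918 (permutation p 2.2e-04, 0.0099 adjusted). Without the 2 libraries farthest from the median of Eomes, r was 0.883, and in the 6 controls alone it was 0.810. In the 8 libraries of experiment 2, where tTA genotype and exposure also vary, r was 0.843. The libraries with the highest Calb2 in each experiment, DN replicate 3 and SOR replicate 4, had 2.57 and 2.28 CPM of Eomes. No other pair passed the adjusted threshold. Eomes with Igfbpl1 had r = 0.705 and rho = 0.627 (adjusted permutation p 0.341 and 0.313), and Igfbpl1 with Sox4 had r = 0.653 and rho = 0.773 (0.341 and 0.181). Mki67 and Top2a were not such a pair in either experiment.

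**Figure D4:**
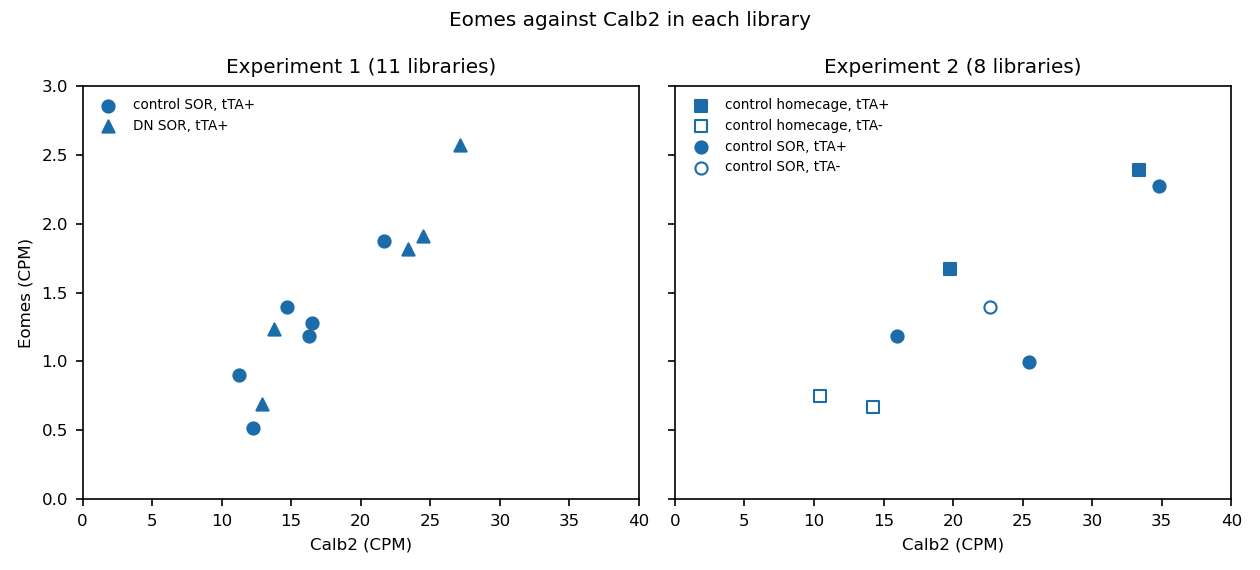
Eomes against Calb2 (CPM, linear axes from 0) in each library of the 2 experiments, with groups by symbol and tTA- libraries open. Libraries rich in Calb2 were rich in Eomes, with r = 0.887 on log2 values in experiment 1 and 0.843 in experiment 2.

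The genes most like Dcx were not markers. Over the 19 libraries, with log2 CPM centred on the mean of each experiment, the top 5 were 9630001P10Rik, Gm37608, Ildr2, Nxpe4 and Mdga2, with r from 0.851 to 0.871 and rho from 0.774 to 0.858. They were picked from 21739 genes and share the libraries' depth and composition, so no p is given. In experiment 2 alone these 5 had r from 0.885 to 0.914, and in experiment 1 from 0.487 (Mdga2) to 0.785 (Nxpe4). Among the other 9 markers the most like Dcx over the 19 libraries was Eomes, at rank 4462 with r = 0.398 and rho = 0.474. The lowest by r was Nes, at rank 15093 with r = -0.228 and rho = -0.0982. By rho the lowest was Neurod1, at -0.274. The order differed between the experiments. In experiment 1, Calb2 (r = 0.655) and Sox4 (0.605) were above Eomes (0.552), and Nes was at 0.347. In experiment 2, Eomes was at 0.387, Calb2 at -0.0519, Nes at -0.343 and Sox4 at -0.391.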

How the data were processed

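The authors deposited whole-number counts per gene for 19 libraries. Per the submitters' processing notes, STAR, SAMtools 1.6, featureCounts 1.4.4 and the build mm10 were used; the annotation, the strand setting and the treatment of multiply mapped reads are not given in the sources used here. Without strand, reads of antisense neighbours cannot be told apart. Symbols, positions and exon lengths came from GENCODE release M21 (51596 of 51789 identifiers matched). Libraries held 22258159 to 66991576 counts, and replicates differed by more than counting noise (chi-square per degree of freedom 4.63 to 73.4).

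Each experiment was fitted alone with edgeR 4.0.16 in R 4.3.3 (TMM, filterByExpr, robust glmQLFit, two-sided quasi-likelihood F test, Benjamini-Hochberg adjustment over all genes tested, threshold 0.05), with exposure as a covariate in the tTA comparison. Standard errors were derived from F, as the size of the log2 fold change over its root. Log2 CPM used a prior count of 2. The code was tested on simulated data. Pair correlations used 100000 permutations of the libraries. Alternatives were DESeq2 1.42.0, its size factors, no filter, 1 fit of 19 samples, a replicate block, other model terms or subsets, and each library left out.

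The markers, lists and rules were chosen with earlier results of these data known. All markers are named, with up to 4 genes of smallest p per list and comparison, the Nr4a genes and the 5 genes most like Dcx.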

Additional observations from a re-analysis of the deposited data

Results flagged for a closer look

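In the 5 tTA+ libraries of experiment 2, SOR replicate 3 lay far from the others in 2 markers. Nes was at 26.4 CPM there, and the nearest other library was at 18.3 CPM. Sox4 was at 21.2 CPM, with the nearest at 14.2 CPM. In each case the gap to the nearest library, divided by the range of the group, was past Dixon's critical value (0.761 for Nes and 0.888 for Sox4). In all, 50 sets of 4 to 6 libraries were examined in this way, 5 for each marker, and chance alone flags about 1 in 20.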

How the results depend on the processing

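By replicate numbers, libraries of the groups compared were correlated in their deviations from the group means. In experiment 1, r was -0.050 to 0.19 for same-numbered libraries and -0.19 to 0.26 for differently numbered ones. In experiment 2, r was 0.045 to 0.39 for same-numbered libraries and -0.31 to 0.21 for differently numbered ones. These few values cannot decide whether the numbers pair the libraries. With the replicate block the genes called were 9 after SOR, 0 by tTA genotype and 2 with DN, and the tTA difference of Sox11 was 0.087. In that fit the tTA difference rests on replicate 2 alone. The number called after SOR (20) was 36 with no filter on low counts, 118 with DESeq2, 100 with all 19 samples in 1 fit, 11 with tTA as a covariate and 0 in tTA+ mice alone. The number called by tTA genotype (82) was 265 with no filter, 250 with DESeq2, 388 with all 19 samples and 944 in homecage mice alone. Markers called by tTA genotype (0) were 1 with no filter, 1 with DESeq2, 1 with all 19 samples and 3 in homecage mice alone. With 1 library left out, genes called ran from 1 (without homecage replicate 1) to 50 (without SOR replicate 3) after SOR, and from 10 (without SOR replicate 1) to 290 (without SOR replicate 3) by tTA genotype, with 0 to 1 markers. In tTA+ mice alone the SOR difference changed sign for Nes (0.28), Mki67 (0.13), Eomes (-0.44), Igfbpl1 (-0.016), Sox11 (-0.030) and Calb2 (-0.069). Signs also changed with 1 library left out. The ranges were -0.063 to 0.052 for Mki67, -0.17 to 0.032 for Igfbpl1 and -0.021 to 0.081 for Sox4 with DN. They were -0.23 to 0.080 for Nes, -0.22 to 0.50 for Eomes, -0.095 to 0.079 for Sox11 and -0.030 to 0.28 for Sox4 after SOR, and -0.37 to 0.11 for Nes and -0.00448 to 0.18 for Top2a by tTA genotype. The cause of these changes was not tested. Eomes had the fewest counts of the 10 markers, at 20 to 163 per library.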
